A study of Homo sapiens with 24 samples.

Results

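The long noncoding RNAs MALAT1 and NEAT1 were followed in whole-cell RNA and in ribosome gradient pools of lung fibroblasts, with and without peroxide. The members were every catalog probe named MALAT1 and every custom probe designed to the MALAT1 transcript ENST00000534336 or to the NEAT1 transcripts ENST00000501122 and ENST00000499732, which gave 7 probes of 2 genes among the 61537 non-control probes of the array. Of these, 3 probes were designed to MALAT1 and 4 to NEAT1.

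MRC5 cells, an established line of human lung fibroblasts, were either left untreated (control) or exposed to 0.2 mM H2O2 for 2 h (oxidative stress, OS). RNA came from whole cells (total) or from 3 pools of a sucrose gradient: fractions 1 to 9 (untranslated), fractions 10 to 14 (low, few ribosomes) and fractions 15 to 23 (high, many ribosomes). Each of the 8 groups had 3 arrays, 24 in all, labelled from equal amounts of RNA. The paper states that labelling began with reverse transcription from an oligo-dT primer. A level is therefore relative to the other RNA labelled from that sample, after normalization. Whether priming differed between RNAs or pools was not tested. Gradients were loaded with lysate cleared by centrifugation, and total RNA came from whole-cell extracts, so that the preparation and the comparison of total RNA with a pool cannot be told apart, and neither can fewer cells and less RNA per cell.

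MALAT1 is an abundant transcript that is held in nuclear speckles and ends in a genome-encoded A-rich tract that forms a triple helix. NEAT1 is transcribed next to it in overlapping isoforms that share their start, and its long isoform is the scaffold on which paraspeckles, nuclear bodies of RNA and RNA-binding proteins, assemble. Both are standard markers of the nuclear RNA pool, and paraspeckles are known to change when cells are stressed.

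The probes are 60 bases long and are shown by their first 30 bases, 5′ to 3′, because they show which probes share a site. Capitals mark bases that both ENST00000501122 probes share.
MALAT1 catalog: aagcaagctgtttttatagcagctcttaat
MALAT1 24794: ctggtgttttgagaagccctactgctgaaa
MALAT1 24795: ttcatatttacacgagaacctaatataact
NEAT1 24788: atggcaggtctagtttgggcattgtgattg
NEAT1 24789: tgtgttgtgctaaacgctgggagggtacaa
NEAT1 24790: GCACTCAGGTTTTGCTTTTCACCTTCCCAT
NEAT1 24791: cGCACTCAGGTTTTGCTTTTCACCTTCCCA

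The custom probes are named by their design numbers: 24794 and 24795 belong to ENST00000534336, 24788 and 24789 to ENST00000499732, and 24790 and 24791 to ENST00000501122. Probes 24790 and 24791 share a run of 59 bases, so they read 1 site and are no independent measurements of NEAT1. No other pair of the 7 probes shared a run of 12 bases, and none of the other 61352 probes analysed shared 20 bases with any of them on either strand. The catalog probe lies on chromosome 11 at 65272873 to 65272932 in the GRCh37 coordinates of the array files, and begins at base 7640 of its transcript. The files give no coordinates for the custom probes, so their place along each transcript, and which NEAT1 isoforms a probe reads, was not tested.

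OS low replicate 3 stood apart from the other arrays in signal. On that array 93.3% of custom and 95.4% of catalog probes were well above background and the median processed signal was 678.5, against at most 36.3%, 67.7% and 47.8 on the other 23 arrays. Differences upon OS or between pools that use it are therefore also given without it where they were called. All arrays are normalized and fitted together, so it also bears on comparisons that do not use it. Without it, calls upon OS over all tested probes went from 1711 to 3581 in total RNA and from 2786 to 5284 in the untranslated pool. The paper states that replicates failing to cluster with the others were removed, without naming them, and here the array was kept. All 4 fibroblast markers on the array (COL1A1, COL3A1, THY1 and LUM) were well above background on 6 of 6 total RNA arrays, with COL1A1 at 17.80 ± 0.04 (log2, SD, n = 3) in control. Among markers of other cell types, EPCAM was at 5.05 ± 0.10 and above background on 2 of 6 arrays, while SFTPC, CDH5 and 1 of 3 PTPRC probes passed background on all 6 at means between 6.05 and 7.24. Of 10 peroxide response genes listed, only ATF3 and EGR1 were on the array by name, with all but 1 of their 5 probes for ATF3. Of these probes 3 were called higher in total RNA upon OS, beside 3% of all tested catalog probes. The brightest ATF3 probe went from 11.33 ± 0.30 to 16.16 ± 0.10 and the ATF3 probe that rose least from 7.42 ± 0.42 to 8.08 ± 0.28. EGR1 went from 13.94 ± 0.65 to 14.8 ± 0.12.

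All 7 probes were far brighter in total RNA than in any pool, in both conditions. In control cells the catalog MALAT1 probe measured 11.26, 11.32 and 11.27 in total RNA on a log2 scale of normalized signal. It measured 6.97, 6.44 and 8.66 in the untranslated pool, 5.41, 6.33 and 7.28 in the low pool, and 3.96, 5.27 and 6.20 in the high pool. The total RNA values had an SD of 0.04 and lay above every pool value, while neighbouring pools overlapped, with SDs of 1.16, 0.94 and 1.13. The probe was well above background on 1 of 3 untranslated arrays, 3 of 3 low arrays and 2 of 3 high arrays.

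Upon OS the catalog probe was again brightest in total RNA, while the order of its pools depended on the scaling. High minus low was -0.25 ± 0.67 (limma, adjusted p = 0.793). Low minus untranslated was -2.05 in the main fit and 1.74 with no normalization. The catalog probe measured 10.09, 10.65 and 10.00 in OS total RNA, 6.37, 6.99 and 7.39 in the untranslated pool, 5.03, 5.16 and 4.43 in the low pool, and 3.07, 5.15 and 5.66 in the high pool. Total RNA again stood clear of every pool. In control cells the difference between total RNA and a pool was 3.92 ± 0.67 (SE) against the untranslated pool, 4.94 ± 0.67 against the low pool and 6.14 ± 0.67 against the high pool (limma, adjusted p = 6.42e-05, 9.29e-06 and 6.68e-07). These are 15.2-fold, 30.7-fold and 70.4-fold, the first and last against pools with 1 and 2 of 3 arrays above background. Against the low pool only 23 of 10673 catalog probes tested had a larger difference.

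**Figure D1:**
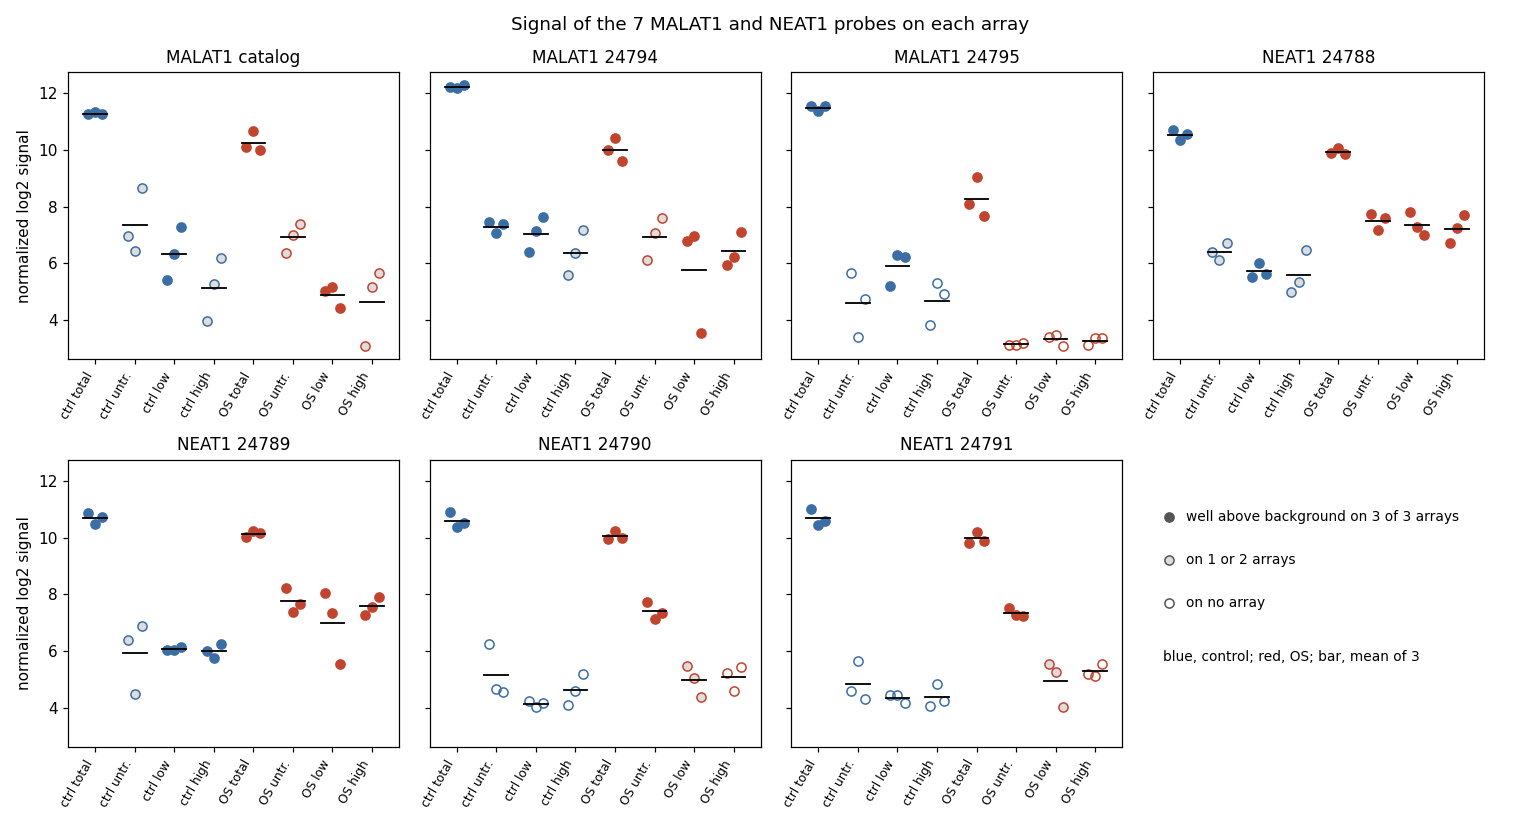
Normalized log2 signal of each of the 7 probes on the 24 arrays, by group (blue, control; red, OS; bars, means of 3), with filled points where the probe was well above background on all 3 arrays of the group, grey where on 1 or 2, and open where on none. Total RNA values of every probe lie above all of its pool values, and each probe's 3 OS total values lie below its 3 control total values.

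The custom MALAT1 probes were also higher in total RNA than in the pools. MALAT1 24794 measured 12.21, 12.18 and 12.29 in control total RNA and 7.45, 7.05 and 7.38 in the untranslated pool, a difference of 4.93 ± 0.67. MALAT1 24795 measured 11.55, 11.37 and 11.56 in control total RNA and was not well above background on any untranslated or high array, which leaves a bound. For such a bound each dim array was given whichever was larger, the value measured or the smallest value of any probe of that category passing background there, and the mean of the result was taken from the mean of the bright group on the log2 scale. On that basis 24795 was at least 42.3-fold and at least 60.7-fold higher in total RNA than in the untranslated and high pools of control cells, and 5.59 ± 0.47 (48.2-fold) above the low pool, where it passed background on 3 of 3 arrays.

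NEAT1 also stood higher in total RNA. In control cells, probes 24788 and 24789 measured 10.71, 10.34 and 10.55, and 10.85, 10.49 and 10.73, in total RNA. Against the high pool, where they passed background on 1 of 3 and 3 of 3 arrays, their differences were 4.94 ± 0.32 and 4.68 ± 0.53 (adjusted p = 9.26e-10 and 1.05e-06). Probes 24790 and 24791 were not well above background on any array of any control pool, and were at least 22.7-fold, 47.3-fold and 32.5-fold, and at least 24.3-fold, 50.7-fold and 34.8-fold, higher in total RNA than in the untranslated, low and high pools.

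Over all 42 comparisons of a probe in total RNA with a pool, each was called higher in total RNA (adjusted p below 0.05), with no overlap between groups. Such a separation was common. In control cells 40.5%, 29.7% and 33.3% of all tested probes had every total RNA array above every untranslated, low and high array. In OS cells these shares were 42.1%, 25.5% and 30.1%. In control cells the 7 of 7 probes called stand beside 33.2% of all tested probes called higher in total RNA than in the untranslated pool, 17.3% for the low pool and 19.9% for the high pool. In OS cells the 7 of 7 stand beside 29%, 20.2% and 16.7%. All 7 probes passed the filter on dim probes through their total RNA arrays. Within each of the 3 slides, which held 1 array of every group, the 7 probes were above 0 in each of the 6 comparisons, the smallest at 1.79. Probes on 1 array share its RNA, so these are 3 slides and no 21 replicates. Without OS low replicate 3, 42 differences were called. Under each of the 8 scalings run the 42 differences lay above the median of all tested probes, by at least 1.53. The p-values rest on 1 spread per probe, moderated by limma and pooled over the 3 arrays within each of the 8 groups. Groups that are not compared therefore enter it. For OS against control in total RNA the catalog MALAT1 probe had an SE of 0.67, although its SDs there were 0.04 and 0.35. Control untranslated replicates 1 and 2 share a number in their labels, so they may come from 1 preparation. The paper states that each repeat of the procedure had an independent RNA preparation.

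**Figure D2:**
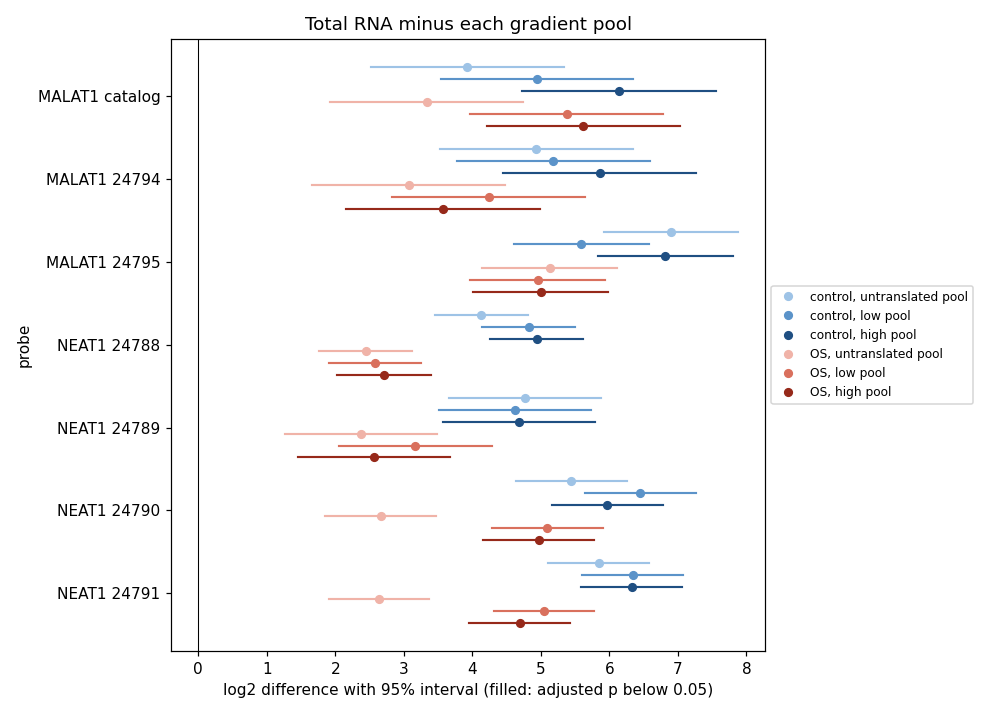
Difference between total RNA and each gradient pool for the 7 probes, as log2 differences with 95% intervals from the limma fit (blue, control; red, OS; filled, adjusted p below 0.05). All 42 differences lie above 0, the smallest at 2.38. Points for MALAT1 24795 against every pool but control low, and for NEAT1 24790 and 24791 against every control pool and OS high, use pool values not well above background, so their sizes were not measured. Most OS differences are smaller than the control ones of the same probe.

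Upon OS, both custom MALAT1 probes were lower in total RNA, 24794 near the limit of a call. MALAT1 24795 went from 11.55, 11.37 and 11.56 to 8.09, 9.04 and 7.67, and MALAT1 24794 from 12.21, 12.18 and 12.29 to 9.98, 10.41 and 9.61. On both probes every OS array lay below every control array. Probe 24795 fell by 3.23 ± 0.47 (9.37-fold, 95% interval -4.21 to -2.24, adjusted p = 0.000124), and only 4 of 11736 custom probes tested had a more negative difference. Probe 24794 fell by 2.23 ± 0.67 (4.69-fold, adjusted p = 0.0497), a call that was lost under 21 of 24 leave-outs of 1 array, where adjusted p reached 0.179. The call was also lost with slide (0.0599) or replicate number (0.0647) as a block, and it stood at 0.00121 without OS low replicate 3.

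The catalog MALAT1 probe was not called lower. Its 3 OS values were all below its 3 control values, and the difference of -1.03 ± 0.67 (95% interval -2.44 to 0.37) had an adjusted p of 0.537. It was called with the spread taken from the 6 total RNA arrays alone (adjusted p = 0.0147) and with the normexp background correction (0.0159). Within each array, 24795 minus 24794 was -0.66, -0.81 and -0.73 in control total RNA and -1.88, -1.37 and -1.93 in OS total RNA, a change of -0.99 (exact two-sided permutation p = 0.1, the smallest that 3 arrays against 3 allow; adjusted p = 0.175 over 14 such comparisons). The 3 values of the groups did not overlap.

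No NEAT1 probe was called in total RNA by the main limma fit, and the lowest unadjusted p was 0.0532, for 24791. The 4 probes differed by -0.60, -0.55, -0.54 and -0.72 upon OS, with adjusted p between 0.307 and 0.791. The 95% interval of 24791 ran from -1.46 to 0.01. With only the total RNA arrays fitted, 24788, 24789 and 24791 were called (adjusted p = 0.0213, 0.0287 and 0.0438), and with normexp 24790 and 24791 were, at -0.47 and -0.56 (0.0446 and 0.00576). Of the 7 probes, 2 were called lower in total RNA, beside 3.06% of all tested probes (the same 2 beside 7.67% without OS low replicate 3), although all 7 had OS values wholly below control values, as did 26.4% of tested probes. On each of the 3 slides the difference was below 0 on all 7 probes, from -3.89 to -0.15. The probes share the RNA of an array, so they are no further replicates.

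In the untranslated pool all 4 NEAT1 probes rose. NEAT1 24790 measured 6.24, 4.67 and 4.56 in control untranslated arrays, all not well above background, and 7.72, 7.12 and 7.35 upon OS, all above background. NEAT1 24791 measured 4.59, 5.65 and 4.30 in control and 7.53, 7.27 and 7.22 upon OS. Every OS array lay above every control array on both probes, which read 1 site, as it did for 19.5% of all tested probes.

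On the fitted scale NEAT1 24790 rose by 2.24 ± 0.39 and 24791 by 2.49 ± 0.35 (adjusted p = 0.000434 and 6.59e-05), at least 2.47-fold and at least 2.37-fold as bounds. Probes 24788 and 24789 rose by 1.09 ± 0.32 and 1.84 ± 0.53 (adjusted p = 0.023 and 0.0198), from 6.38, 6.13 and 6.71 to 7.74, 7.17 and 7.59, and from 6.40, 4.48 and 6.87 to 8.22, 7.39 and 7.67. Each passed background on 1 of 3 control arrays. Both calls were lost without the filter on dim probes (adjusted p = 0.0711 and 0.0619), 24788 also under 75th percentile scaling (0.211) and with control untranslated replicates 1 and 2 averaged (1.02, adjusted p = 0.0765), and both without control untranslated replicate 2 (0.96 and 1.12, adjusted p = 0.0981 and 0.133) or OS untranslated replicate 1 (0.97 and 1.61, 0.0911 and 0.0849). That of 24788 was also lost without control untranslated replicate 1 (0.0662) or OS untranslated replicate 3 (0.0752). Of the 5 probes tested, 4 were called higher, beside 9.87% of all tested probes (the same 4 beside 16.9% without OS low replicate 3), but these 4 passed the filter on dim probes through their OS arrays alone, so that the filter favours this direction. Within slides these 4 probes differed by 0.46 or more, above 0 on 3 of 3 slides each.

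No MALAT1 probe was called in the untranslated pool. MALAT1 24794 differed by -0.36 ± 0.67 in the untranslated pool (95% interval -1.77 to 1.04, adjusted p = 0.829), and neither other MALAT1 probe was well above background on all 3 arrays of either untranslated group, so they were not tested.

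**Figure D3:**
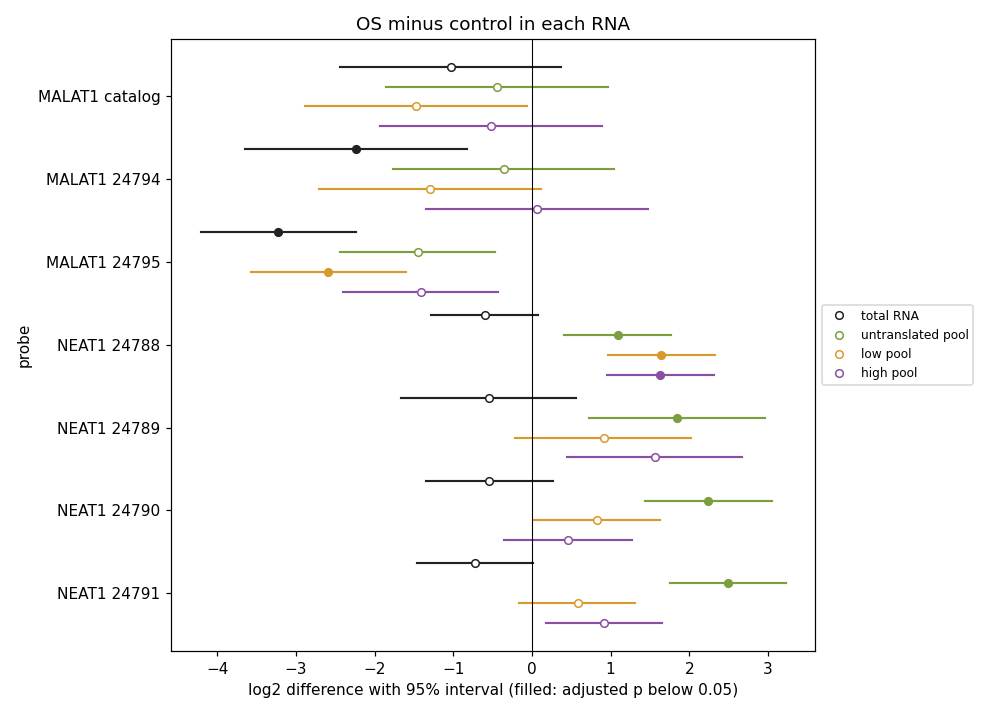
Difference between OS and control in total RNA and in each pool for the 7 probes, as log2 differences with 95% intervals (black, total RNA; green, untranslated; orange, low; purple, high; filled, adjusted p below 0.05). MALAT1 24795 and 24794 are below 0 in total RNA, and the 4 NEAT1 probes lie above 0 in the untranslated pool.

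In the low and high pools NEAT1 24788 was higher upon OS. It went from 5.51, 6.02 and 5.61 to 7.80, 7.28 and 7.00 in the low pool and from 4.97, 5.35 and 6.46 to 6.73, 7.24 and 7.70 in the high pool, with all OS values above all control values in both. Such a separation was found for 7.63% (low) and 15.8% (high) of all tested probes. It rose by 1.64 ± 0.32 and 1.63 ± 0.32 (adjusted p = 0.00398 and 0.00375; in the low pool 1.87 and 0.00235 without OS low replicate 3). It passed background on 1 of 3 control high arrays and so entered that test through OS alone, and in both pools the call was lost when only the 2 groups compared were fitted (0.151 and 0.107), and in the high pool also with no normalization (0.0921). NEAT1 24789 differed by 0.91 ± 0.53 (low) and 1.56 ± 0.53 (high), not called (adjusted p = 0.231 and 0.115), and by 1.67 and 1.60, called (0.034 and 0.0173), without OS low replicate 3. Its value on that array was 5.55, against 8.04 and 7.34 on the other OS low arrays.

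MALAT1 24795 measured 5.19, 6.28 and 6.23 in the control low pool and was not well above background on any OS low array, at least 3.1-fold lower (difference -2.59 ± 0.47, adjusted p = 0.00197; -2.51 and 0.00554 without OS low replicate 3). The call was lost with no normalization (0.0683), with scaling to the 75th percentile of detected probes (0.0865) and with only the groups compared (0.0975). The probe entered this test through its control arrays alone. Of 5 probes tested in the low pool, 1 was called higher and 1 lower, beside 7.27% of all tested probes called in either direction. That share was 9.42% without OS low replicate 3. In the high pool 1 of 3 tested, NEAT1 24788, was called higher, beside 3.8% of all tested probes (2 of 3 beside 8.38% without OS low replicate 3), and it too entered through the brighter group.

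In OS cells NEAT1 24790 and 24791 were lower in the high pool than in the untranslated pool, while the direction for the low pool turned with the scaling. NEAT1 24790 measured 5.46, 5.06 and 4.36 in the OS low pool, above background on 2 of 3 arrays, and 5.21, 4.59 and 5.44 in the OS high pool, not well above background on any, against 7.72, 7.12 and 7.35 in the untranslated pool. The difference from untranslated was -2.44 ± 0.39 for low and -2.32 ± 0.39 for high (adjusted p = 6.81e-05 and 4.57e-05), at least 4.16-fold in the latter. Without OS low replicate 3 low minus untranslated was -2.19 (0.000306). NEAT1 24791 gave -2.41 ± 0.35 and -2.05 ± 0.35 (adjusted p = 2.76e-05 and 5.79e-05), at least 4.00-fold in the high pool. Without OS low replicate 3 low minus untranslated was -2.01 (5.32e-05). With spike-in scaling low minus untranslated was called in the opposite direction, at 1.45 and 1.53 (adjusted p = 0.00797 and 0.00562), and with no normalization it was 0.95 and 1.03, not called. High minus untranslated was not called with spike-in scaling on either probe (-0.89 and -0.63, adjusted p = 0.0961 and 0.232), nor with no normalization on 24791 (-1.33, 0.0662). Both probes entered these tests through the untranslated arrays alone.

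Probes of ENST00000499732 were not called in these comparisons by the main fit. NEAT1 24788 measured 7.74, 7.17 and 7.59, then 7.80, 7.28 and 7.00, then 6.73, 7.24 and 7.70 along the 3 OS pools, with high minus untranslated at -0.28 ± 0.32 (95% interval -0.95 to 0.40) and 24789 at -0.19 ± 0.53 (-1.31 to 0.92). Other settings called high minus untranslated in both directions: 24788 was -0.82 with quantile normalization over all probes and with the deposited table (adjusted p = 0.0254 in each), -0.49 with normexp (0.011), -1.64 with the 75th percentile of detected probes (0.00388) and 1.29 with spike-in scaling (0.00221), and 24789 was -1.54 (0.00576) and 1.39 (0.00365) in the last 2. Low minus untranslated was called higher on 24788 and 24789 with no normalization, at 2.96 and 2.60 (adjusted p = 1.22e-05 and 4.56e-05), and with spike-in scaling, at 3.45 and 3.1 (1.49e-08 and 4.81e-07). Within each array, the mean of the ENST00000501122 probes minus that of the ENST00000499732 probes was -0.36, -0.08 and -0.35 in the OS untranslated pool and -1.79, -2.53 and -2.32 in the OS high pool. The groups did not overlap and differed by -1.95 (exact two-sided permutation p = 0.1, adjusted p = 0.175). A constant factor applied to an array leaves this difference as it is, but the ENST00000501122 probes were not well above background in the OS high pool, so that their level there is an upper limit. In total RNA it was near 0 in both conditions, at 0.03 ± 0.13 and -0.03 ± 0.08 (SD, n = 3).

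**Figure D4:**
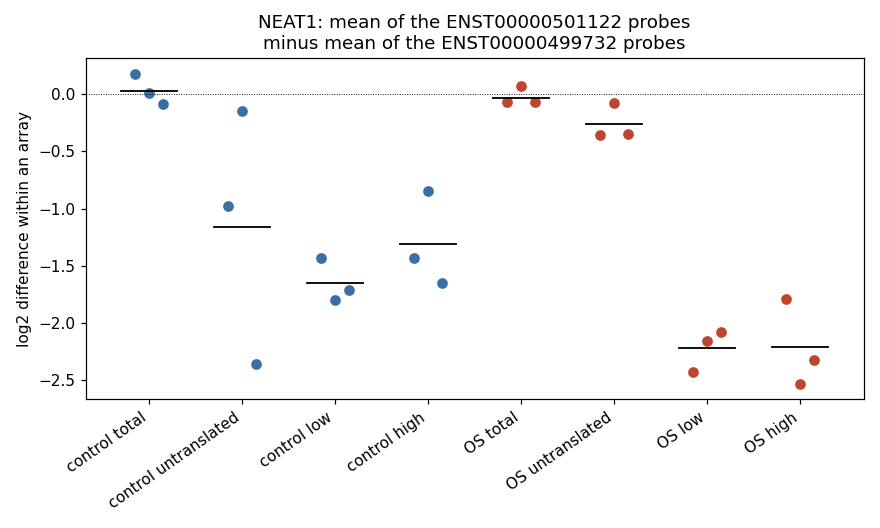
Mean log2 signal of the ENST00000501122 probes minus that of the ENST00000499732 probes on each of the 24 arrays, by group (blue, control; red, OS; bars, means of 3). The OS low and high arrays lie at or below -1.79 and the OS untranslated arrays at or above -0.36; dim probes are included, and in control pools the ENST00000501122 probes were not well above background.

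In control cells the pools were compared in the same way. Of 5 probes tested for low minus untranslated, MALAT1 24795 was called higher (adjusted p = 0.031), but it was not well above background on any untranslated array and has no bound above 1-fold, so no size is given. Of all tested probes 43.2% were called. Of 2 tested for high minus untranslated none was called by limma, where 63.8% of tested probes were (unadjusted p = 0.183 and 0.869). For high minus low, 24795 was called lower, by at least 1.26-fold (adjusted p = 0.0416, but 0.0535 with replicate number as a block), of 5 tested, beside 44.6%. Both calls were lost in several settings, such as only the groups compared (0.139 and 0.0707), and low minus untranslated was -0.12 with scaling to the 75th percentile of detected probes. In OS cells 3 of 6 (beside 37.6% of tested probes), 2 of 5 (59.5%) and 0 of 4 (44%) were called by limma for the same comparisons, the last at unadjusted p from 0.278 to 0.717, with the catalog MALAT1 probe among those lower in the low than in the untranslated pool (-2.05 ± 0.67, adjusted p = 0.0219; -1.87 and 0.0499 without OS low replicate 3). That call was lost with normexp (-0.61, adjusted p = 0.0789), the 75th percentile (-1.49, 0.129) and the 75th percentile of detected probes (-1.09, 0.331). These comparisons depend on scaling: with no normalization all 3 of the OS low minus untranslated differences turned positive, and with spike-in scaling all 3 were called higher (MALAT1 catalog 2.23, adjusted p = 0.00692). With no normalization and OS low replicate 3 left out they were 0.63 for the MALAT1 catalog probe and -0.20 and -0.01 for NEAT1 24790 and 24791.

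The test of the change itself, OS minus control, was called for several NEAT1 probes. Total minus untranslated was smaller upon OS by 1.69 ± 0.46 on 24788 (adjusted p = 0.0293), and it was called smaller on 24790 and 24791 (fitted changes -2.78 and -3.22, adjusted p = 0.00332 and 0.000392). Probe 24788 passed background on 1 of 3 arrays each in the control untranslated and control high pools, so its changes for those pools start from mostly dim values. On 24790 and 24791 the control pool was not well above background, so the sizes were not measured: total RNA was at least 22.7-fold and 24.3-fold higher in control and 6.31-fold and 6.2-fold higher upon OS. These are 3 of 7 tested, beside 7.46% of tested probes, and 5 of 7 beside 19.8% without OS low replicate 3. Probe 24789 gave -2.39 ± 0.75 (adjusted p = 0.0604; 0.00874 without OS low replicate 3). For total minus low and total minus high, 1 of 7 was called in each, NEAT1 24788 at -2.24 ± 0.46 and -2.23 ± 0.46 (adjusted p = 0.0115 and 0.0107; total minus low -2.48 and 0.00647 without OS low replicate 3), beside 1.97% and 2.08% (2 of 7 beside 3.24% and 4 of 7 beside 4.65% without that array). Calls of total minus untranslated were lost with the 75th percentile of detected probes and with no normalization on 24788 (0.167 and 0.153) and 24790 (0.104 and 0.106), on 24788 also with the 75th percentile (0.0819), spike-in scaling (0.061), no filter (0.0638) and control untranslated replicates 1 and 2 averaged (0.0628). The call of total minus high on 24788 was lost with the 75th percentile of detected probes (0.167) and with no normalization (0.193).

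High minus untranslated changed by -1.78 ± 0.55 on NEAT1 24790 (adjusted p = 0.0493, but 0.0534 with slide as a block). On 24791 it changed by -1.57 ± 0.49 (0.0553, but 0.0464 with replicate number as a block and 0.00838 without OS low replicate 3). The first is 1 of 5 tested, beside 8.81% of all tested probes (2 of 5 beside 22.4% without OS low replicate 3). On both, only the OS untranslated group of the 4 was above background, so the size of the change was not measured. The call of 24790 was lost in 20 of 24 leave-outs of 1 array, where adjusted p reached 0.14, with the 75th percentile (0.324), the 75th percentile of detected probes (0.269), no normalization (0.369), spike-in scaling (0.216) and no filter (0.132), and with only the groups compared (0.114). No MALAT1 probe was called in any of the 4 tests of change by the main fit, where 10 of its 12 differences were tested, with adjusted p from 0.123 upward. Without OS low replicate 3, MALAT1 24794 was called for total minus untranslated and total minus high, at -1.88 and -2.32 (adjusted p = 0.0394 and 0.0369), and with normexp both custom MALAT1 probes were called for total minus each pool, at -1.89, -1.62 and -2.10 for 24794 and -2.46, -1.97 and -2.54 for 24795 (untranslated, low and high). Probe 24794 was also called for total minus untranslated with no normalization (-2.07, 0.0497) and with only the groups compared (-1.86, 0.0303). It was called for total minus low with the 75th percentile of detected probes (-2.56, 0.0396) and for total minus high with spike-in scaling (-2.55, 0.0325). Probe 24795 was called for total minus untranslated without control untranslated replicate 1 (-2.27, 0.0348).

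Lists of related genes were described under the main normalization only, and other scalings moved the median of all tested probes from 0.11 to between -0.21 and 2.37 for control total minus untranslated, and from -0.10 to between -0.36 and 0.29 for total minus high. Of 10 transcripts listed as nuclear-enriched, 5 were on the array by name, and of their 5 tested probes 3 were called higher in control total RNA than in the untranslated pool and 3 higher than in the high pool, with medians of 0.96 and 1.90. Over all tested catalog probes 3726 of 10072 and 1987 of 10402 were called higher (37% and 19.1%) and 2961 (29.4%) and 1879 (18.1%) lower, with medians of 0.17 and -0.11. KCNQ1OT1, a nuclear RNA of an imprinted locus, was highest against the untranslated pool at 3.77, and a MEG3 probe highest against the high pool at 5.19, although another MEG3 probe gave -1.45 and -0.17 in the same comparisons.

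All 4 tested probes of the cytoplasm-enriched list (hosts of small nucleolar RNAs such as GAS5 and SNHG1, and OIP5-AS1) were called lower in control total RNA than in the untranslated pool, beside 29.4% of all tested catalog probes, with a median of -1.52 from -0.87 for SNHG1 to -3.04 for OIP5-AS1. All 4 were called higher in total RNA than in the high pool, beside 19.1%, with a median of 2.46. Translated references (EEF2, ENO1, HSP90AB1 and TPI1) were called higher in total RNA than untranslated on 4 of 4 probes, beside 37%, and lower than in the high pool on 3 of 4, beside 18.1% of all tested catalog probes, with medians of 1.64 and -0.72.

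Messages for proteins of the bodies that hold these RNAs were on the array in part. For paraspeckle proteins, 12 of 14 tested probes were called higher in control total RNA than in the untranslated pool, beside 37% of all tested catalog probes (median 1.38), and 11 of 15 lower than in the high pool, with 2 higher (median -0.90), where 18.1% of all tested catalog probes were lower. CIRBP, a cold-inducible RNA-binding protein, was highest at 4.30 and 4.64, and RBMX was lowest against the high pool at -2.47. For nuclear speckle and MALAT1-related proteins, 11 of 13 were called higher than untranslated (beside 37%, median 1.32) and 5 of 14 lower than high (beside 18.1%, median -0.58), from 0.85 for ELAC2 to -1.59 for SRSF1. Of the genes near the locus, 4 of 5 probes were called higher than untranslated (beside 37%, median 1.22), with POLA2 at 3.13 and SLC25A45 at -0.83, and 3 of 5 lower than high (beside 18.1%, median -0.95).

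Upon OS few probes of these lists were called in total RNA. Of 15 tested paraspeckle probes 1 was called, CIRBP, which fell by 2.17 (adjusted p = 0.0179), and of 14 speckle probes 1 was called, METTL16, which fell by 0.54 (adjusted p = 0.0354). Of 4 cytoplasm-enriched probes SNHG1 was called, which rose by 0.49 (adjusted p = 0.0459). The 5 neighbours of the locus had differences from -0.14 to 0.05, none called by limma (adjusted p from 0.899 upward). KCNQ1OT1 rose by 1.36 (adjusted p = 0.0152). Among all tested catalog probes 319 were called higher and 294 lower of 10630. In the untranslated pool 14.1% of all tested catalog probes were called higher upon OS. Beside that share, 6 of 11 paraspeckle probes (median 0.66, RBMX highest at 1.33) were called higher there. So were 4 of 11 speckle probes (2 of SON, U2AF2 and PRPF6, median 0.56) and 3 of 4 neighbours of the locus (median 0.94, POLA2 highest at 1.34). Of translated references 2 of 4 were called higher (ENO1 and HSP90AB1, median 0.87). Of fibroblast markers 2 of 4 were (COL1A1 and COL3A1, median 1), and of peroxide response probes 3 of 5 (median 2.77). The difference between these counts and those in total RNA was not tested. None of the 4 nuclear-enriched or 4 cytoplasm-enriched probes tested was called there by limma (adjusted p from 0.148 upward, medians -0.08 and -0.16).

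**Figure D5:**
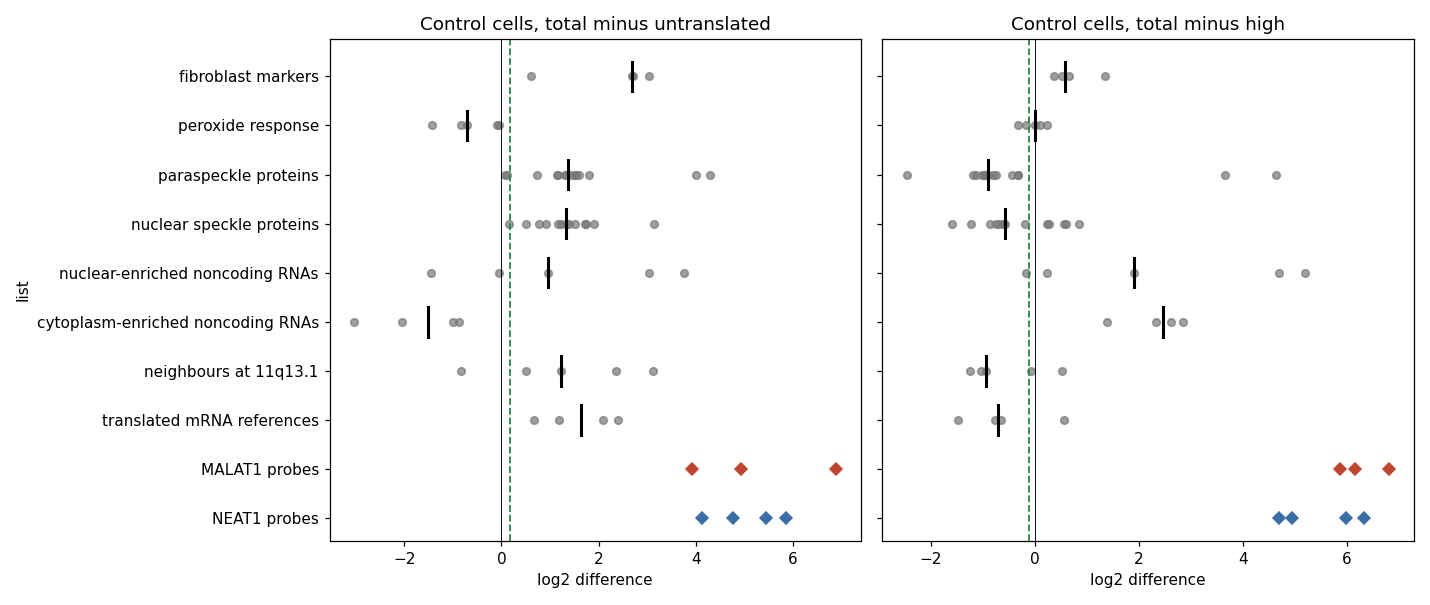
Log2 difference between control total RNA and the untranslated pool (left) or the high pool (right) for the tested catalog probes of each list (grey points; black bars, list medians), for the 3 MALAT1 probes (red) and for the 4 NEAT1 probes (blue); the dashed green line is the median of all tested catalog probes. The 7 probes lie at or above 3.92 on the left and 4.68 on the right, and the points of MALAT1 24795 and NEAT1 24790 and 24791 use pool values not well above background, so their sizes were not measured.

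The profile of the catalog MALAT1 probe over the 24 arrays was most like that of RUFY2 (Pearson r = 0.93), ABCA9 (0.924), INKA1 (0.921, listed as C3orf54), EBLN2 (0.919), FRMD4A (0.911), SLC2A6 (0.907), LOC442132 (0.901) and RPS15AP10 (0.901) among named catalog probes. Among custom probes the 4 most alike were 1 of ENST00000556475 (0.946), both of ENST00000530422 (0.944 and 0.943) and 1 of ENST00000454813 (0.942). The 24 arrays share the contrast of total RNA with the pools. Of 11447 catalog probes compared 22 reached 0.9, as did 27 of 14230 custom probes. The other MALAT1 and NEAT1 probes stood at 0.926 and 0.87 for MALAT1 24794 and 24795 and from 0.781 to 0.863 for NEAT1.

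Of the RNAs most like MALAT1, RUFY2 and ENST00000454813 were called lower in total RNA upon OS, by 1.51 (adjusted p = 0.00348) and 2.20 (adjusted p = 0.00179). Beside them, 2.77% of all tested catalog and 3.32% of all tested custom probes were called lower. The other 10 probes most like MALAT1 were not called, with FRMD4A nearest at -1.54 (adjusted p = 0.0506). The arrays that chose these probes include the total RNA arrays, so a shared direction is partly built into the choice.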

How the data were processed

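Total RNA and gradient pools of MRC5 cells were hybridised by the authors to single-colour Agilent arrays with custom lncRNA and catalog probes, read with Feature Extraction 10.7.3.1. Per the file headers, each spot has a processed intensity after background subtraction. Values on a log2 scale were deposited as 1 table for all arrays, which differed from log2 processed signal, quantile-normalized over all probes, by at most 0.086.

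Control probes and 178 probes marked as outliers were left out (NEAT1 24790, whose local background alone was marked on 3 of 24 arrays, was kept), leaving 43911 custom and 17448 catalog probes. Log2 processed signal was quantile-normalized separately for both kinds, and groups were compared with limma 3.58.1 (R 4.3.3) over all 24 arrays, without covariates. Testing required signal well above background on all arrays of 1 or more of the groups compared. P-values were adjusted by Benjamini-Hochberg over all tested probes, and a call is an adjusted p below 0.05. The fit was tested on simulated data. The array design names GRCh37 per the file headers, and 0 columns of the deposited table lacked a sample. The number of arrays, 3 a group, limits the precision.

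Genes named were the members, the most positive and most negative of each list, and the 8 named catalog and 4 custom probes closest to the catalog MALAT1 probe by Pearson correlation; 11 catalog probes with no gene name in the reference table (RefSeq, used for names only) ranked among them and were passed over, a reading of the rule made after a first list. Of 98 listed genes 50 were on the array by name and 48 were not. Members and lists were chosen with earlier results of these data known. Tests of differences between probes within an array, and leaving out OS low replicate 3 together with another scaling, were added after seeing the data. After a first run the values followed through the alternatives were also narrowed, for pool against pool to the called differences and the ENST00000499732 probes in OS cells. Normalization, filter, replicate number, slide, samples fitted and each array were varied.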

Additional observations from a re-analysis of the deposited data

Results flagged for a closer look

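For 6 differences between RNAs a test of the change upon OS was called by limma in the main fit, all on NEAT1 probes. Total minus untranslated changed by -1.69 on NEAT1 24788 (adjusted p = 0.0293), by -2.78 on 24790 (0.00332) and by -3.22 on 24791 (0.000392). Total minus low and total minus high changed by -2.24 and -2.23 on 24788 (adjusted p = 0.0115 and 0.0107). High minus untranslated changed by -1.78 on 24790 (adjusted p = 0.0493). Probes 24790 and 24791 read 1 site. Their control pool values were not well above background, so that these changes start from bounds, and for high minus untranslated on 24790 only the OS untranslated group was above background. Probe 24788 passed background on 1 of 3 arrays each in the control untranslated and control high pools. Without OS low replicate 3 each of the 6 was still called, with adjusted p from 2.18e-05 to 0.0198 (NEAT1 24791, total minus untranslated, and NEAT1 24790, high minus untranslated). With the 75th percentile of detected probes and with no normalization the calls of total minus untranslated were lost on 24788 (adjusted p = 0.167 and 0.153) and 24790 (0.104 and 0.106), and that of total minus high on 24788 (0.167 and 0.193). Total minus untranslated on 24788 was also not called with the 75th percentile (0.0819), spike-in scaling (0.061), no filter (0.0638) or control untranslated replicates 1 and 2 averaged (0.0628). High minus untranslated on 24790 was not called with the 75th percentile (0.324), that of detected probes (0.269), no normalization (0.369), spike-in scaling (0.216), no filter (0.132), slide as a block (0.0534) or only the groups compared (0.114). With normexp both custom MALAT1 probes were also called for total minus each pool. The call of 24790 for high minus untranslated was lost in most single leave-outs of another array, and that of 24788 for total minus untranslated in several.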

How the results depend on the processing

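The 42 calls of total RNA against the pools depended little on the settings: over 690 values of other settings the differences ran from 0.78 to 8.45 with 3 not called, and over 1008 values with 1 array left out from 2.19 to 7.44 with 0 not called. The 3 were NEAT1 24788 at 0.78 and 24789 at 1.08 for OS total minus low with no normalization (adjusted p = 0.154 and 0.0506), and MALAT1 24794 at 4.24 with only the groups compared (0.0526). Directions between pools depended on the scaling. The causes of changes were not tested. Signal over background limits the dim probes, and the number of arrays limits every value. After a first run the pool against pool values followed here were narrowed to the called differences and the ENST00000499732 probes in OS cells.

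With replicate number as a block, MALAT1 24794 in total RNA upon OS was -2.23 (adjusted p = 0.0647), and with slide as a block -2.23 (0.0599). Not every pair of arrays of a replicate number deviated together (13, 6 and 19 of 28 pairs had r over 0.1), so the main fit did not pair arrays by number. The paper describes repeats of the procedure, each with its own RNA preparation, so the number may mark a run. In these data 18 of 24 arrays correlated best with their own replicate number and 19 of 24 with their own slide. With replicate number as a block, control high minus low of MALAT1 24795 was not called (-1.22, adjusted p = 0.0535). The change of high minus untranslated of NEAT1 24791 was called there (-1.57, 0.0464). MALAT1 24794 in total RNA upon OS was -2.21 with quantile normalization over all probes and with the deposited table. It was -2.23 without the filter on dim probes and with the strict filter, not called in any of these.

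With normexp, 17 changes of differences between RNAs were called against 6, those of MALAT1 24794 and 24795 for total minus each pool among them. MALAT1 catalog at -1.03, NEAT1 24790 at -0.47 and 24791 at -0.56 were called in total RNA upon OS. In the high pool upon OS MALAT1 24794 was 0, 24795 -0.30 and NEAT1 24791 0.18. The change of high minus untranslated was -0.06 for NEAT1 24788 and that of total minus low -0.47 for the MALAT1 catalog probe.

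NEAT1 24788 in the untranslated pool upon OS was not called with the 75th percentile (1.08), the 75th percentile of detected probes (1.06), no normalization (1.07), spike-in scaling (0.89), no filter (1.09) or control untranslated replicates 1 and 2 averaged (1.02; there MALAT1 24794 in total RNA was -2.23, not called). NEAT1 24789 at 1.84 was not called with no filter or with only the groups compared.

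With the 75th percentile of detected probes, 16 pool against pool differences were called against 7. Control low minus untranslated was -0.12 for MALAT1 24795, and OS low minus untranslated 0.13 for NEAT1 24788. In the low pool upon OS MALAT1 24794 was 0.41, 24795 -1.73 (not called), NEAT1 24789 2.54 (called), 24790 2.59 and 24791 2.40. NEAT1 24789 in the high pool was 1.67 (called), and the change of total minus low of the MALAT1 catalog probe was -0.93.

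With no normalization, 18 pool against pool differences were called. OS low minus untranslated was 1.74 for the MALAT1 catalog probe and 2.96, 2.60, 0.95 and 1.03 for NEAT1 24788, 24789, 24790 and 24791. OS high minus untranslated was 0.60 and 0.69 for 24788 and 24789. In the low pool upon OS MALAT1 24794 was 0.10, 24795 -2.03 (not called), NEAT1 24789 2.24 (called), 24790 2.28 and 24791 2.09. In the high pool MALAT1 24794 was -0.02 and NEAT1 24788 1.56 (not called). The change of total minus low of the MALAT1 catalog probe was -0.90.

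With spike-in scaling, 24 pool against pool differences were called. OS low minus untranslated was 2.23 for the MALAT1 catalog probe and 3.45, 3.1, 1.45 and 1.53 for NEAT1 24788, 24789, 24790 and 24791, all called higher. OS high minus untranslated was 1.29 and 1.39 for 24788 and 24789. In the low pool upon OS NEAT1 24789 was 1.87 (called), 24790 1.91 and 24791 1.72, and in the high pool 24789 was 1.68 (called). The change of high minus untranslated of 24789 was 0.08, and that of total minus low of the MALAT1 catalog probe -0.52.

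Requiring signal above background in all groups compared left fewer differences to test. Of total RNA against pools 18 of 18 tested were called, and of pool against pool 0 of 9. Of OS against control 2 of 12 were called, and of the changes 1 of 5. The pool against pool differences called in the main fit were not among the 9. MALAT1 24794 in total RNA upon OS was tested and lost its call (adjusted p = 0.0795). With only the groups compared, MALAT1 catalog at -1.03, NEAT1 24788 at -0.60, 24789 at -0.55 and 24791 at -0.72 were called in total RNA upon OS. MALAT1 24795 at -2.59 and NEAT1 24788 at 1.64 in the low and 1.63 in the high pool were not, and 24789 at 1.56 in the high pool was.

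Some settings, chosen after seeing the data, joined another scaling with leaving out OS low replicate 3. With the 75th percentile 16 changes were called, NEAT1 24791 was called at -0.86 in total RNA, and 24789 at 1.82 in the low and 1.60 in the high pool. With spike-in scaling 22 pool against pool differences and 14 changes were called. OS low minus untranslated was 1.46 for the MALAT1 catalog probe and 3.06, 2.95, 0.63 and 0.81 for the NEAT1 probes, and OS high minus untranslated 1.29 and 1.39. NEAT1 24788 was called at -0.84 in total RNA, 24789 at 1.72 in the low and 1.68 in the high pool, and the change of high minus untranslated of 24789 was 0.08. With no normalization 19 pool against pool differences and 13 changes were called. OS low minus untranslated was 0.63 for the MALAT1 catalog probe and 2.23 and 2.13 for NEAT1 24788 and 24789, and OS high minus untranslated 0.60 and 0.69. NEAT1 24789 was called at 1.76 in the low and 1.54 in the high pool, and MALAT1 24794 was -0.02 in the high pool. With the deposited values the changes called were 12, and NEAT1 24789 at 1.70 in the low and 1.42 in the high pool.

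Leaving out each array in turn gave these ranges. MALAT1 24794 upon OS ran from -2.44 to -2.03 in total RNA, -0.69 to 0.04 in the untranslated, -1.87 to -0.18 in the low and -0.34 to 0.46 in the high pool. NEAT1 24788 in the untranslated pool ran from 0.96 to 1.26, and 24789 from 1.12 to 2.34, from 0.38 to 1.67 in the low and from 1.39 to 1.71 in the high pool. OS high minus untranslated of 24789 ran from -0.38 to 0.04, its change from -0.76 to 0.44, and OS low minus untranslated of 24788 from -0.36 to 0.04. The change of the MALAT1 catalog probe ran from -1.29 to 0.08 for total minus high and from -0.04 to 0.90 for total minus low. Between 4 and 13 changes were called, 13 of them without OS low replicate 3.

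Over all tested probes, OS against control called 1711 in total RNA, 2786 in the untranslated, 1694 in the low and 1044 in the high pool. Without OS low replicate 3 these were 3581, 5284, 2208 and 2589. Over all settings run, single arrays left out included, the counts ran from 694 to 5690, 283 to 5515, 77 to 7858 and 316 to 2589, and across scalings the share of calls that were higher ran from 51.1% to 76%, 37.9% to 88%, 21.8% to 86.3% and 65.9% to 96.8%.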
